A study of Mus musculus with 15 samples.

Results

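The genes described here encode the proteins of the mitochondrial ribosome, in the liver of mice given a long-term atherogenic and high-fat diet with or without branched-chain amino acids (BCAA). Every gene of the array annotation with a single symbol of the form Mrpl or Mrps followed by a digit was taken, with pseudogene symbols left out, and the brightest transcript cluster (the probes combined into 1 value) stood for each gene. This gave 77 of the 19938 genes measured. By symbol, 48 belong to the large subunit (Mrpl) and 29 to the small subunit (Mrps). The rule reads symbols and no measured level, although the family itself was taken up with earlier results of these data known, and the cluster was chosen by its mean over all 15 arrays.

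Mitochondria carry their own ribosomes, which translate the few messenger RNAs of the mitochondrial genome into core subunits of the respiratory chain and ATP synthase. The ribosomal RNAs are transcribed inside the organelle, whereas every ribosomal protein is encoded in the nucleus, made in the cytosol and imported. The small subunit decodes the messenger RNA and the large subunit forms the peptide bond, and hepatocytes, which are rich in mitochondria, depend on both.

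The livers came from male C57BL/6J mice, and 15 Affymetrix arrays of the Mouse Gene 1.0 ST design covered 5 groups with 3 arrays per group. The basal diet group was sampled at 38w of age. The Ath+HF group received the atherogenic and high-fat (Ath & HF) diet and the Ath+HF+BCAA group the same diet with 3% BCAA, each sampled at 38w and at 68w. All diets started at week 8 and had therefore been fed for 30 or 60 weeks. The labels name no transgene or deletion for any group. Basal diet arrays of 68w were not analysed here, so that age, feeding time and processing batch cannot be told apart wherever 68w and 38w arrays are compared. Separate mice per array are not named in the labels, and the tests therefore weigh differences against array-to-array spread that can include technical variation. All signals are log2 values normalized by the authors with RMA. Groups were compared with limma in 1 fit of all 15 arrays, and a gene was called higher or lower at a Benjamini-Hochberg adjusted p under 0.05 over the 19938 genes. A log2 fold change of a bulk sample cannot tell fewer cells of a type from less RNA per cell.

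The 7 hepatocyte markers measured (such as Alb and Ttr) had a mean log2 signal between 12.93 and 13.20 in all 15 arrays. The mean of 9 macrophage markers was 8.996 to 9.028 in the basal diet group, 10.06 to 10.56 in the diet groups at 38w, 8.35 to 8.50 in the Ath+HF group at 68w and 10.49 to 10.93 in the Ath+HF+BCAA group at 68w. The arrays labelled Ath+HF 68w thus lay below the basal diet arrays in macrophage markers, and those labelled Ath+HF+BCAA 68w lay above them. Stellate markers (8 genes, 9.59 to 9.67) and cholangiocyte markers (4 genes, 8.09 to 8.17) were also highest with BCAA at 68w. Of the 8 stellate markers, limma called 6 higher and 0 lower with than without BCAA at 68w. Col1a2 had a mean of 8.04 without and 9.47 with BCAA at 68w, and Pdgfrb 8.14 and 9.71. The paper reports the opposite by quantitative PCR, with both messenger RNAs raised in the Ath+HF group and repressed with BCAA. The cause of this difference was not tested. The group names below are the labels of the arrays, and if both 68w labels had been exchanged, every value below that uses a 68w array would change. The differences between the 68w groups would turn their sign, the comparisons with the basal diet group would trade places, and the comparisons with 38w and the dependence of the BCAA difference on age would take other values, since each would set the 68w arrays of one diet against the 38w arrays of the other. The median over all genes lay between 7.28 and 7.39 in the other 4 groups and was 7.50 in each array of the Ath+HF+BCAA group at 68w.

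Expression of the mitochondrial ribosomal protein genes was lower at 68w than in the basal diet group at 38w under both diets, and lowest in the Ath+HF+BCAA group. The paper reports instead that many mitochondria-related genes fell with the disease and were rescued by BCAA. Its main text names no mitochondrial ribosomal protein gene. The median log2 signal over the 77 genes was 9.20 to 9.32 in the basal diet arrays. It was 9.01 to 9.20 in the Ath+HF group and 9.13 to 9.22 in the Ath+HF+BCAA group at 38w. At 68w it was 8.98 to 9.03 in the Ath+HF group and 8.68 to 8.81 in the Ath+HF+BCAA group. The 68w arrays of the Ath+HF+BCAA group did not overlap any other group in this median. At 38w the arrays with BCAA overlapped the basal diet arrays, while the highest Ath+HF array (9.197) lay just below the lowest basal diet array (9.1997), a gap smaller than the spread within either group. Of the 77 genes, 58 (75.3%) had their lowest group mean in the Ath+HF+BCAA group at 68w, against 28.2% of all genes, and 45 (58.4%) had their highest group mean in the basal diet group, against 19% of all genes.

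**Figure D1:**
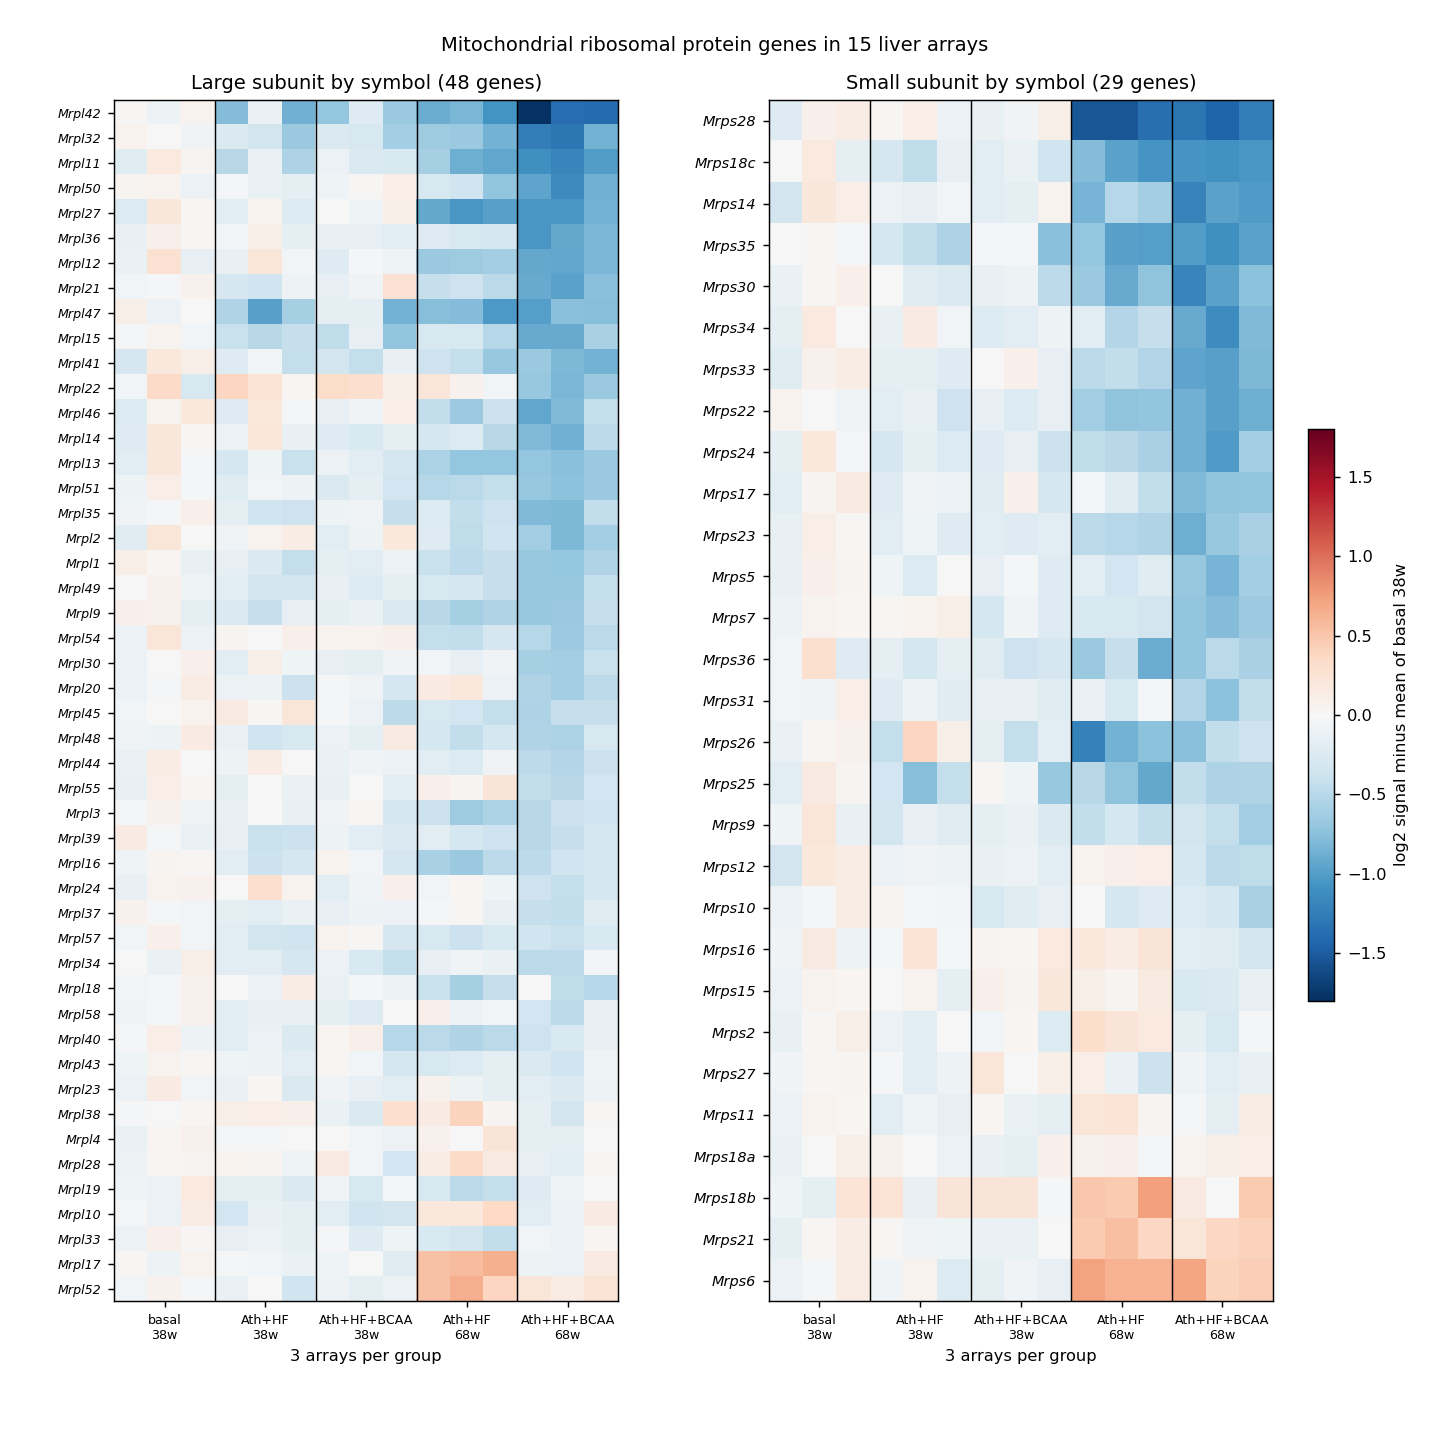
Each row is a mitochondrial ribosomal protein gene and each column 1 of the 15 arrays, with color giving the log2 signal minus the mean of the 3 basal diet arrays (blue lower, red higher). Rows are ordered by the difference between the Ath+HF+BCAA group at 68w and the basal diet group, and most rows are blue at 68w, from Mrpl42 (-1.51) and Mrps28 (-1.34) at the top down to Mrpl52 (0.20) and Mrps6 (0.52) at the bottom.

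At 38w, at most 1 of these genes passed the test against the basal diet group, a count that depended on the scaling. In the Ath+HF group, 0 of 77 were called higher (3.05% of all genes) and 1 lower (1.18% of all genes), with a median log2 fold change of -0.13. With BCAA, 0 were called higher (3.67% of all genes) and 0 lower (1.82% of all genes), again with a median of -0.13. With array medians set equal, the Ath+HF group had 10 lower calls instead of 1 (2.8% of all genes under this scaling). At an unadjusted p under 0.05, limma gave 20 lower genes in the Ath+HF group (7.66% of all genes) and 11 lower genes in the Ath+HF+BCAA group (9.42% of all genes). No member was higher at this level in either group, against 9.92% and 10.5% of all genes. All 3 arrays lay below all 3 basal diet arrays for 24 genes in the Ath+HF group (9.58% of all genes) and for 15 genes in the Ath+HF+BCAA group (10.2% of all genes). The single call was Mrpl47, a large subunit protein at the exit of the peptide tunnel. Its signal was 8.40, 8.18 and 8.30 in the basal diet group and 7.75, 7.32 and 7.69 in the Ath+HF group at 38w, with no overlap (log2 fold change -0.71, standard error 0.17, limma adjusted p = 0.0248). This call was lost without basal diet replicate 1 or 3, without Ath+HF 38w replicate 2, in a fit of the 38w arrays alone, and when the mean of both Mrpl47 clusters was used.

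At 68w, most of these genes were lower than in the basal diet group. In the Ath+HF group, 46 of 77 were called lower (19.1% of all genes) and 5 higher (19% of all genes), with a median log2 fold change of -0.35, against 0.05 over all genes. These comprised 31 lower and 2 higher of the 48 large subunit genes, and 15 lower and 3 higher of the 29 small subunit genes. Of the 77 genes, 57 were lower in the Ath+HF+BCAA group (21.8% of all genes) and 2 higher (22.9% of all genes), with a median of -0.54, against 0.01 over all genes. Here 37 large subunit genes were lower and 0 higher, and 20 small subunit genes were lower and 2 higher. All 3 arrays lay below all 3 basal diet arrays for 48 genes in the Ath+HF group (23.7% of all genes) and for 59 genes in the Ath+HF+BCAA group (27.1% of all genes). Among the brighter 75% of genes, which held all 77 members, 25.1% of genes were lower in the Ath+HF group and 24.7% in the Ath+HF+BCAA group. Quantile normalization of the deposited values changed the counts in the Ath+HF group at 68w to 28 lower and 12 higher, and left 55 lower and 3 higher in the Ath+HF+BCAA group. The shares of all genes under this setting are not given here, so an excess over all genes cannot be read from these counts alone.

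**Figure D2:**
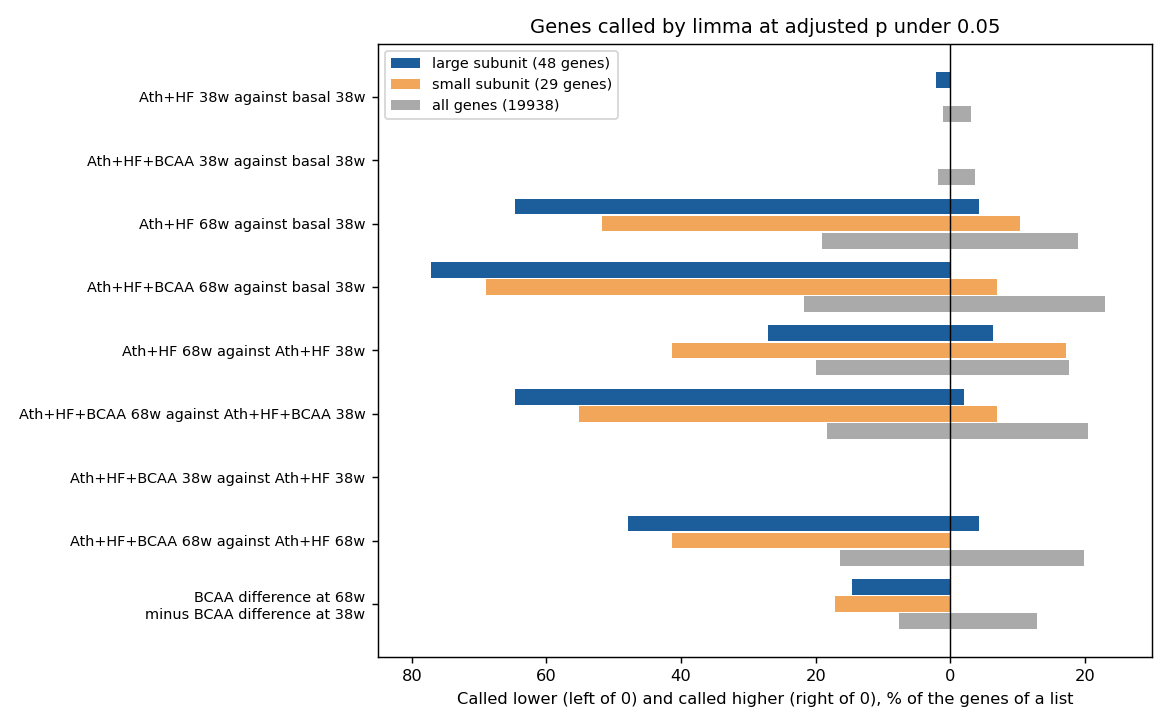
Bars give the share of genes called lower (left of 0) and higher (right of 0) by limma at an adjusted p under 0.05, in % of the 48 large subunit genes, the 29 small subunit genes and all 19938 genes, for each of 9 comparisons. In the comparisons of 68w arrays the bars of both subunits reach further to the left than that of all genes, and in the 38w comparisons at most 1 member was called.

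Comparing 68w with 38w under the same diet gave more lower than higher calls in both diet groups, which in the Ath+HF group depended on the normalization. In the Ath+HF group 25 genes were called lower (20% of all genes) and 8 higher (17.6% of all genes), with a median log2 fold change of -0.17. The lower calls comprised 13 large and 12 small subunit genes, and the higher calls 3 and 5. Among the brighter 75% of genes, 27% were lower in the Ath+HF group, with 28 of the 77 members, and 21.7% in the Ath+HF+BCAA group, with 49 of the 77 members. Under quantile normalization the Ath+HF group had 10 lower calls (13% of members, against 16% of all genes) and 16 higher calls (20.8% against 17.2%), both near the shares of all genes, with a median of -0.03. For the Ath+HF+BCAA group, 47 were called lower (18.3% of all genes) and 3 higher (20.5% of all genes), with a median of -0.36, and quantile normalization left 46 lower and 5 higher (shares of all genes not given). These were 31 large and 16 small subunit genes among the lower calls, and 1 and 2 among the higher calls. The arrays did not overlap, with 68w lower, for 33 genes in the Ath+HF group (25.4% of all genes) and for 50 genes in the Ath+HF+BCAA group (24.3% of all genes).

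These 2 comparisons share no arrays. Of the 25 genes lower in the Ath+HF group and the 47 lower in the Ath+HF+BCAA group, 21 were lower in both, which is 84% of the first list and 44.7% of the second. Over all genes the shared lower calls made up 43.3% and 47.2% of the corresponding lists. No member was called in opposite directions, whereas 886 of all genes were. The sign was the same for 59 of the 77 genes (76.6%), against 64.6% of all genes. Across the 77 genes the 2 differences had a Pearson correlation of 0.74 and a Spearman correlation of 0.66, against 0.23 and 0.32 across all genes, which describes these arrays only, since genes are not independent replicates.

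**Figure D3:**
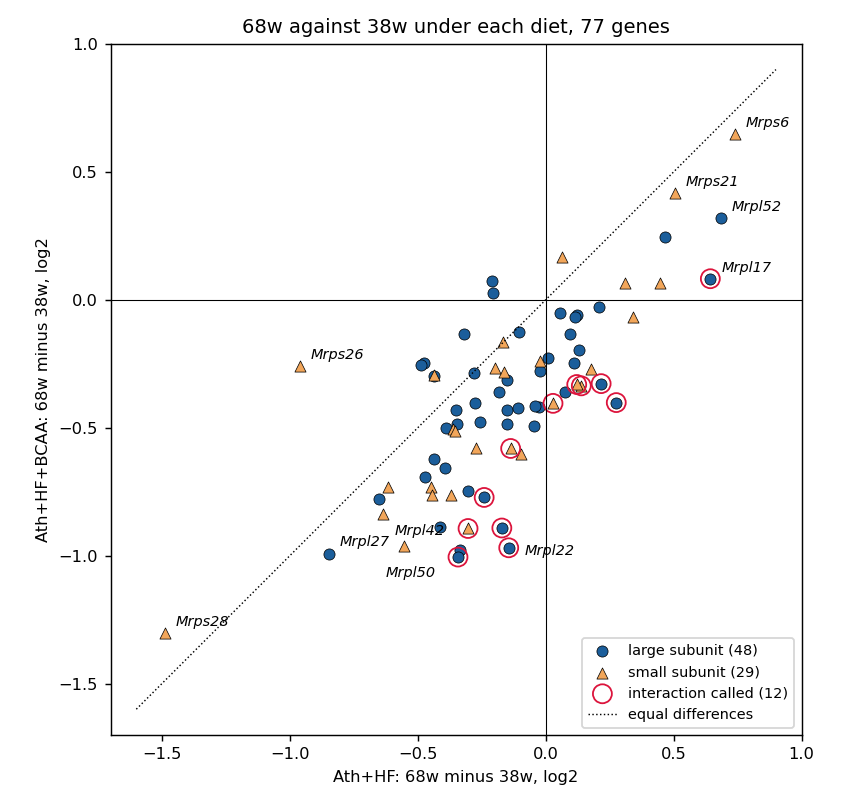
Each point is 1 of the 77 genes, placed by its log2 difference between 68w and 38w in the Ath+HF group (horizontal axis) and in the Ath+HF+BCAA group (vertical axis), with circles for the large and triangles for the small subunit. Mrps28 lies at the lower left in both groups and Mrps6 at the upper right, and the 12 genes ringed in red, for which the interaction test was called, lie below the dotted line of equal differences.

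The gene with the largest difference between the ages was Mrps28, which encodes a small subunit protein. Its signal was 8.99, 9.32 and 9.36 in the basal diet group, 9.24, 9.34 and 9.12 in the Ath+HF group at 38w, 9.09, 9.16 and 9.33 in the Ath+HF+BCAA group at 38w, 7.68, 7.69 and 7.87 in the Ath+HF group at 68w, and 7.90, 7.78 and 7.98 in the Ath+HF+BCAA group at 68w. All 9 arrays of 38w lay at or above 8.99 and all 6 arrays of 68w at or below 7.98, whichever diet was fed. The fall was 2.81-fold in the Ath+HF group (log2 fold change -1.49, standard error 0.11, limma adjusted p = 7.73e-07) and 2.46-fold in the Ath+HF+BCAA group (log2 fold change -1.30, standard error 0.11, limma adjusted p = 9.53e-07). At 68w the groups with and without BCAA did not differ beyond their spread (log2 difference 0.14, standard error 0.11, limma adjusted p = 0.337).

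Mrpl27, the counterpart of a bacterial protein that reaches toward the peptidyl transferase center, followed the same pattern. Its signal was 10.20, 10.65 and 10.47 in the basal diet group, 10.23, 10.50 and 10.20 in the Ath+HF group at 38w, 10.45, 10.36 and 10.54 in the Ath+HF+BCAA group at 38w, 9.53, 9.39 and 9.47 in the Ath+HF group at 68w, and 9.40, 9.39 and 9.59 in the Ath+HF+BCAA group at 68w. The lowest 38w array was at 10.20 and the highest 68w array at 9.59. It fell in the Ath+HF group (log2 fold change -0.85, standard error 0.12, limma adjusted p = 9.45e-05) and in the Ath+HF+BCAA group (log2 fold change -0.99, standard error 0.12, limma adjusted p = 1.48e-05), and the difference between the 68w groups was -0.0013 on the log2 scale. A second, dimmer cluster with the symbol Mrpl27 gave -0.66 and -0.91. Which cluster reads the gene itself rather than a copy is not given in the annotation used here. Mrps18c, the mitochondrial protein closest to bacterial S18, had 9.86, 9.71 and 10.01 at 38w and 9.38, 9.19 and 9.10 at 68w in the Ath+HF group, and 9.96, 10.03 and 9.80 against 9.10, 9.08 and 9.11 in the Ath+HF+BCAA group. Neither pair of groups overlapped (log2 fold change -0.63, standard error 0.11, limma adjusted p = 0.000621 in the former, log2 fold change -0.84, limma adjusted p = 4.22e-05 in the latter).

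Proteins of the ribosomal stalk, the flexible arm that recruits elongation factors, moved in different directions. Mrpl12, a stalk protein that also binds the mitochondrial RNA polymerase, was at 10.29, 10.64 and 10.37 in the Ath+HF group at 38w and 9.75, 9.78 and 9.82 at 68w, a fall of 1.57-fold (log2 fold change -0.65, standard error 0.12, limma adjusted p = 0.00078). With BCAA it was at 10.19, 10.40 and 10.35 and 9.50, 9.49 and 9.61 (log2 fold change -0.78, standard error 0.12, limma adjusted p = 0.000133). Mrpl11, at the base of the stalk, also fell under both diets (log2 fold change -0.41 and -0.89, limma adjusted p = 0.0245 and 0.000109). Mrpl10, to which Mrpl12 is bound in the stalk, was at 10.21, 10.41 and 10.37 in the Ath+HF group at 38w and at 10.74, 10.74 and 10.91 at 68w. It thus rose between the ages where its partners fell (log2 fold change 0.47, standard error 0.11, limma adjusted p = 0.00381), and in the Ath+HF+BCAA group its difference missed the threshold (log2 fold change 0.25, limma adjusted p = 0.084). The basal diet arrays of Mrpl10 read 10.51, 10.45 and 10.69, above its Ath+HF arrays of 38w. Against them it was not called higher in the Ath+HF group at 68w.

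Other genes lower at 68w under both diets included Mrps30, whose protein sits in the large subunit despite its symbol, with log2 fold changes of -0.62 in the Ath+HF group and -0.73 in the Ath+HF+BCAA group. Mrps14 (log2 -0.55 and -0.96) and Mrps35 (log2 -0.44 and -0.76), both of the small subunit, were called in both groups as well. Against the basal diet group, 43 genes were lower in both 68w groups. A further 14 were called in the Ath+HF+BCAA group alone, and 3 in the Ath+HF group alone, namely Mrpl19, Mrpl33 and Mrpl40. Both lists share the basal diet arrays, so the overlap between them is not a separate result. The shares of all genes called in both comparisons or in either alone are not given here, so no excess is read from these counts.

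Mrps6 and Mrps21 were the exceptions, since both were called higher at 68w in the 2 comparisons with the basal diet group and in the 2 comparisons with 38w. In bacteria the counterpart of Mrps6 binds that of Mrps18c, a gene that fell in the same arrays. The Mrps6 signal was 8.35, 8.42 and 8.60 in the basal diet group, 8.40, 8.52 and 8.21 in the Ath+HF group at 38w, 8.28, 8.40 and 8.32 in the Ath+HF+BCAA group at 38w, 9.18, 9.09 and 9.08 in the Ath+HF group at 68w, and 9.18, 8.86 and 8.90 in the Ath+HF+BCAA group at 68w. Every 38w array lay at or below 8.60 and every 68w array at or above 8.86. Mrps6 rose 1.67-fold in the Ath+HF group (log2 fold change 0.74, standard error 0.11, limma adjusted p = 0.000136) and 1.56-fold in the Ath+HF+BCAA group (log2 fold change 0.65, standard error 0.11, limma adjusted p = 0.000269). Mrps21 rose by less (log2 fold change 0.51, standard error 0.10, limma adjusted p = 0.00104 in the Ath+HF group, log2 fold change 0.42, limma adjusted p = 0.00323 in the Ath+HF+BCAA group), and its comparison with the basal diet group in the Ath+HF+BCAA arrays lost its call without basal diet replicate 1 (limma). Mrpl52, a large subunit protein without a bacterial counterpart, was higher at 68w than at 38w under both diets, with signals of 9.23, 9.33 and 8.98 against 9.87, 9.999 and 9.72 in the Ath+HF group and of 9.25, 9.17 and 9.23 against 9.56, 9.47 and 9.58 in the Ath+HF+BCAA group. The difference was 0.69 on the log2 scale in the former (limma adjusted p = 0.000157) and 0.32 in the latter (limma adjusted p = 0.0217), a call that was lost without Ath+HF+BCAA 38w replicate 2 or Ath+HF+BCAA 68w replicate 1 or 3.

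**Figure D4:**
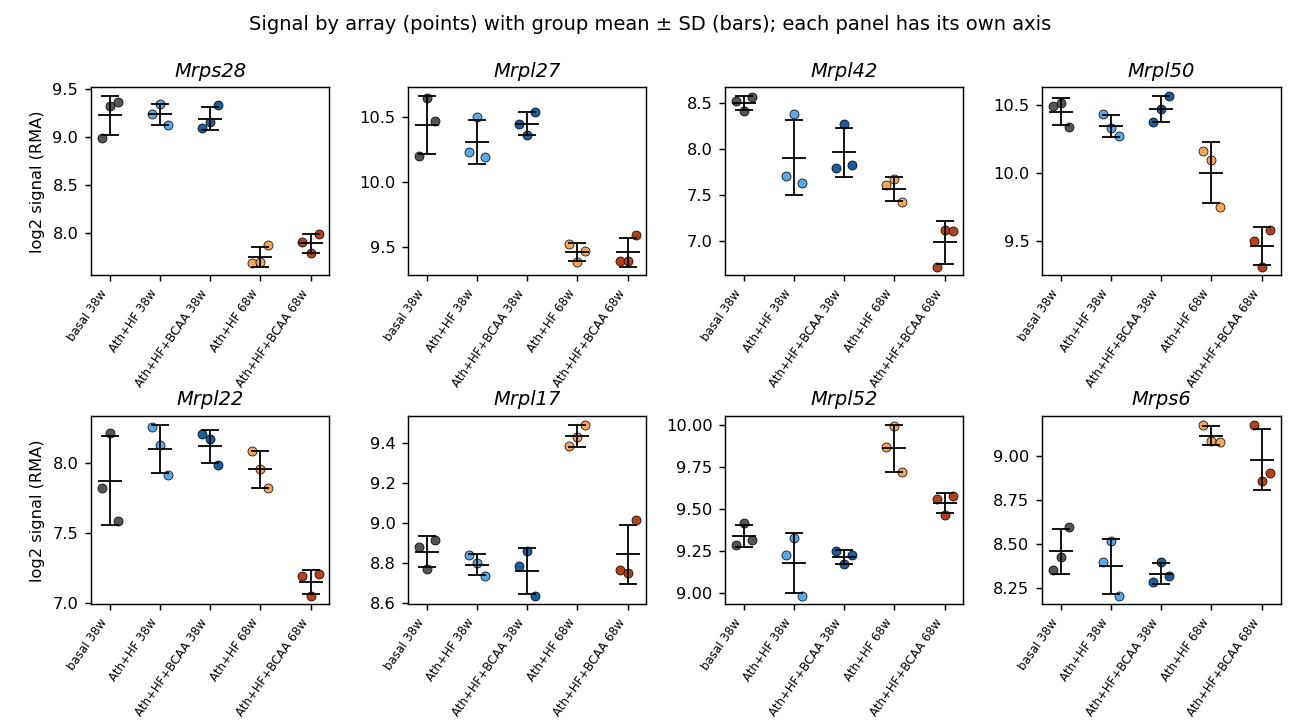
Points are the log2 signals of single arrays for 8 genes in the 5 groups, and bars give the group mean ± SD (n = 3). Mrps28 and Mrpl27 are low in all 6 arrays of 68w, Mrpl42 and Mrpl50 are lowest in the Ath+HF+BCAA group at 68w, Mrpl22 is low in that group alone, Mrpl17 is high in the Ath+HF group at 68w alone, and Mrps6 and Mrpl52 are high in all 6 arrays of 68w.

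The Ath+HF+BCAA group was compared with the Ath+HF group at each age, by the labels of the arrays. At 38w, limma called 0 of the 77 genes higher (0% of all genes) and 0 lower (0% of all genes), with a median log2 difference of 0.01, and 4 genes had an unadjusted p under 0.05, 2 higher (3.42% of all genes) and 2 lower (4.24% of all genes). At 68w, 35 genes were lower with than without BCAA (16.4% of all genes) and 2 higher (19.8% of all genes), with a median of -0.25, against -0.09 over all genes. Of these, 23 lower and 2 higher were large subunit genes, and 12 lower and 0 higher were small subunit genes. The arrays did not overlap, with the Ath+HF+BCAA group lower, for 42 genes (32.8% of all genes). Leaving out Ath+HF 68w replicate 1 or 2 reduced the 35 lower calls to 23 and 21, and leaving out Ath+HF+BCAA 68w replicate 1 or 2 reduced them to 21 and 19 (shares of all genes not given). In these same arrays 7 of 9 macrophage markers were higher by limma, with a median log2 difference of 2.50, and 3 of 7 hepatocyte markers were lower, with a median of -0.18. The part of such shifts in the ribosomal protein genes was not tested.

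Mrpl22, the counterpart of a bacterial protein that lines the peptide exit tunnel, had the largest difference between the 68w groups. Its signal was 7.82, 8.22 and 7.59 in the basal diet group, 8.26, 8.13 and 7.91 in the Ath+HF group at 38w, 8.21, 8.17 and 7.98 in the Ath+HF+BCAA group at 38w, 8.09, 7.96 and 7.82 in the Ath+HF group at 68w, and 7.19, 7.05 and 7.21 in the Ath+HF+BCAA group at 68w. The highest value at 68w with BCAA, 7.21, lay below all other 12 arrays. The difference from the Ath+HF group at 68w was 1.75-fold (log2 difference -0.80, standard error 0.14, limma adjusted p = 0.000352), while at 38w it was 0.02 on the log2 scale. Among the other large subunit genes, Mrpl36 read 9.87, 9.81 and 9.79 without and 9.05, 9.18 and 9.28 with BCAA at 68w (log2 difference -0.65, standard error 0.10, limma adjusted p = 7.28e-05). Mrpl20 read 8.79, 8.83 and 8.54 and 8.10, 8.03 and 8.17 (log2 difference -0.62, standard error 0.11, limma adjusted p = 0.00054). In both genes the groups were apart by more than their whole spread. Mrpl42 had the largest span of group means of all 77 genes, from 8.50 ± 0.08 (SD, n = 3) in the basal diet group to 6.99 ± 0.23 (SD, n = 3) in the Ath+HF+BCAA group at 68w, with 7.57 ± 0.13 (SD, n = 3) in the Ath+HF group at 68w. Its difference between the 68w groups (log2 difference -0.58, standard error 0.18, limma adjusted p = 0.0195) lost its call without Ath+HF 68w replicate 1 or 2 or Ath+HF+BCAA 68w replicate 1. Of the small subunit, Mrps34 and Mrps17 were lower in the Ath+HF+BCAA group at 68w (log2 -0.56 and -0.52, limma adjusted p = 0.00215 and 0.0051). Mrps12, the decoding center protein, read 7.90, 7.93 and 7.94 without and 7.51, 7.35 and 7.37 with BCAA at 68w (log2 difference -0.51, standard error 0.12, limma adjusted p = 0.00266), and the 2 sets of arrays did not overlap.

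Mrpl17 was also lower with than without BCAA at 68w, and in the Ath+HF group it was called higher at 68w than at 38w. It was at 8.84, 8.80 and 8.73 at 38w and 9.38, 9.43 and 9.49 at 68w in the Ath+HF group (log2 fold change 0.64, standard error 0.10, limma adjusted p = 0.000159). With BCAA it was at 8.78, 8.86 and 8.64 and 8.76, 8.75 and 9.01 (log2 fold change 0.08, standard error 0.10, limma adjusted p = 0.526). The Ath+HF group at 68w therefore stood apart from the other 4 groups, whose arrays ranged from 8.64 to 9.01. Mrps2, Mrps11 and Mrps18b were also called higher at 68w in the Ath+HF group, with log2 fold changes of 0.34, 0.31 and 0.45, and not in the Ath+HF+BCAA group (-0.07, 0.07 and 0.06). The difference between the diets was not called for these 3 genes (limma adjusted p = 0.0691, 0.255 and 0.227). The call of Mrps2 was lost without replicate 1 or 2 of the Ath+HF group at either age. That of Mrps11 was lost without Ath+HF 38w replicate 1 or 3 or Ath+HF 68w replicate 1 or 2, and that of Mrps18b without Ath+HF 38w replicate 2 or Ath+HF 68w replicate 3. The 2 genes higher in the Ath+HF+BCAA group at 68w, Mrpl33 (log2 difference 0.31, standard error 0.09, limma adjusted p = 0.0138) and Mrpl19 (log2 difference 0.30, standard error 0.11, limma adjusted p = 0.0372), were no longer called with array medians set equal or with quantile normalization, nor without replicate 3 of either 68w group. Mrpl19 also lost its call without replicate 2 of either 68w group.

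Whether the BCAA difference depended on age was tested directly, as the difference at 68w minus the difference at 38w. By limma, 12 of the 77 genes were called lower (7.67% of all genes) and 0 higher (12.9% of all genes), with 7 of the 12 in the large and 5 in the small subunit, and the median was -0.24, against -0.05 over all genes. The count of lower genes was 30 with quantile normalization (10.7% of all genes), 34 with array medians set equal (18.1%), 24 with array weights (11.1%) and 5 with a fold over 1.5 and p under 0.005 (4.78%). At an unadjusted p under 0.05, 29 were lower (14.9% of all genes) and 2 higher (18.2% of all genes). Mrps26 lay on the other side, with a value of 0.70 that missed the threshold (limma adjusted p = 0.0607). Its signal fell in the Ath+HF group, from 7.98, 8.80 and 8.52 to 7.20, 7.55 and 7.67 (log2 fold change -0.96, standard error 0.18, limma adjusted p = 0.000792), and in the Ath+HF+BCAA group it was 8.24, 7.98 and 8.22 at 38w and 7.66, 7.97 and 8.03 at 68w (log2 fold change -0.26, standard error 0.18, limma adjusted p = 0.267).

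The least variable gene was Mrps18a, a paralog of Mrps18c whose protein sits in the large subunit, with group means within 0.17 of each other on the log2 scale. The 3 paralogs thus fell (Mrps18c), rose in the Ath+HF group (Mrps18b) or were called in no comparison (Mrps18a). Mrpl4, Mrpl23, Mrpl43 and Mrps27 were also called in no comparison, which does not show that they were unchanged. The brightest cluster over all arrays was that of Mrpl40 (mean log2 signal 10.65) and the dimmest that of Mrps36 (6.68), although signals of different probes do not rank genes by abundance. Mrps36 is now counted as a subunit of the oxoglutarate dehydrogenase complex rather than of the ribosome. It was lower at 68w than in the basal diet group in both the Ath+HF (log2 fold change -0.66, standard error 0.14, limma adjusted p = 0.00178) and the Ath+HF+BCAA group (log2 fold change -0.59, standard error 0.14, limma adjusted p = 0.00229).

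The promoters of genes that moved together or apart were set side by side. RefSeq sequences of build GRCm38.p6, from 250 bases before to 50 bases after the transcription start, were held for 68 of the 77 genes, in 74 promoters. A set of 5 short motifs of factors known for genes of mitochondria or of growth were searched on both strands, with no motif contained in another. These were GCGCATGC for NRF1, CCGGAAG for ETS factors such as GABP, CCAAT for NF-Y, CACGTG for the E-box bound by Myc, which reads the same on both strands, and AAGATGGC for YY1. The ETS letters were found in 33.8% of the member promoters, against 8.86% of all 32851 promoters and 11.6% of those of coding genes. The YY1 letters were found in 16.2%, against 2.75% and 3.05%, and the NRF1 letters in 10.8%, against 2.71% and 3.52%. CCAAT was found in 39.2%, against 37.4% and 38.2%, and the E-box in 9.46%, against 7.15% and 7.84%. These shares count promoters, and the same sites of Mrpl2 were counted in each of its overlapping promoters. Counted by gene, the E-box was found in 5 and CCAAT in 26 of the 68 genes. Such matches are a description of letters and not of binding.

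The windows below show the 120 bases before the start of 3 genes that were lower in the Ath+HF+BCAA group at 68w than at 38w (Mrpl27, Mrpl50 and Mrpl22) and of 3 genes that were higher at 68w in the Ath+HF group (Mrpl52, Mrpl17 and Mrps6), so that the presence of the same motifs on both sides can be seen. Capitals mark a match to one of the 5 motifs on either strand, and positions count from the start. Mrpl27 lies at chr11:94653671-94653790 (plus strand) with an ETS match at -55, Mrpl50 at chr4:49521084-49521203 (minus strand) with a CCAAT match at -17, and Mrpl22 at chr11:58171544-58171663 (plus strand) with an ETS match at -53 and an NRF1 match at -33. Mrpl52 lies at chr14:54426789-54426908 (plus strand) with an ETS match at -47, Mrpl17 at chr7:105811088-105811207 (minus strand) with an NRF1 match at -11, and Mrps6 at chr16:92058216-92058335 (plus strand) with no match.
Mrpl27: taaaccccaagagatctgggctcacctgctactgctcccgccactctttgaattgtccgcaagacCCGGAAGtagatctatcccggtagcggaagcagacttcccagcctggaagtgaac
Mrpl50: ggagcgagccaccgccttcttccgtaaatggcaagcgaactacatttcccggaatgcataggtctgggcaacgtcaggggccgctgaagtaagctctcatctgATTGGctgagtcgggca
Mrpl22: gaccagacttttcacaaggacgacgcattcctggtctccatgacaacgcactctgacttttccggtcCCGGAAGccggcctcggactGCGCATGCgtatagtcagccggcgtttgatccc
Mrpl52: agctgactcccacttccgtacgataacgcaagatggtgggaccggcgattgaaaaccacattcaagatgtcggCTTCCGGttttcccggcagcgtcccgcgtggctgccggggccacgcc
Mrpl17: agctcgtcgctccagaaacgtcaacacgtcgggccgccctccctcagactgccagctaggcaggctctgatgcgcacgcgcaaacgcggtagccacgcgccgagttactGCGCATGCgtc
Mrps6: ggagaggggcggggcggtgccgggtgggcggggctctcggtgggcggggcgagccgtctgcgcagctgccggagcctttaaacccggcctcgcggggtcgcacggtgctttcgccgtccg

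Genes with and without the ETS letters both had more lower than higher calls at 68w in the Ath+HF+BCAA group. Of the 25 genes with a match, 12 were lower and 2 higher at 68w in the Ath+HF+BCAA group (median log2 fold change -0.27), and of the 43 without one, 29 were lower and 1 higher (median -0.40). Of the 8 genes with the NRF1 letters, 3 were lower and 0 higher (median -0.08), and of the 60 without them, 38 were lower and 3 higher (median -0.38). In the Ath+HF group, the 8 genes with the NRF1 letters comprised 0 lower and 3 higher, and the 60 without them 20 lower and 5 higher. There the 26 genes with CCAAT had 8 lower and 0 higher, and the 42 without it 12 and 8. In the Ath+HF+BCAA group these were 15 and 0, and 26 and 3. With BCAA, 5 of 5 genes with the E-box were lower (median -0.66), against 36 of 63 without it (-0.33). For YY1, 8 of 12 were lower with BCAA (-0.45), against 33 of 56 (-0.33). None of these differences was tested.

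Mrpl46 and Mrps11 are 1 head-to-head pair among these genes, with starts 42 bases apart on opposite strands, so that both are transcribed away from the same 41 bases. This pair was chosen after its values were seen. The stretch between the starts, chr7:78783090-78783130 on the plus strand, holds none of the 5 motifs.
Mrpl46/Mrps11: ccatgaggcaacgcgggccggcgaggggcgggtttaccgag

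In the Ath+HF group Mrpl46 was at 8.81, 9.24 and 9.01 at 38w and 8.60, 8.40 and 8.66 at 68w, and Mrps11 at 7.73, 7.84 and 7.78 and 8.14, 8.17 and 7.97. Mrpl46 fell (log2 fold change -0.47, standard error 0.15, limma adjusted p = 0.0244) while Mrps11 rose (log2 fold change 0.31, standard error 0.10, limma adjusted p = 0.0253), and in neither gene did the arrays of the 2 ages overlap. The call of Mrpl46 was lost without Ath+HF 38w replicate 2 or 3 or Ath+HF 68w replicate 2, and with quantile normalization. With BCAA, Mrpl46 fell as well (log2 fold change -0.69, standard error 0.15, limma adjusted p = 0.00209), and Mrps11 differed by 0.07 on the log2 scale, which was not called (limma adjusted p = 0.628).

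Mitochondrial ribosomal proteins with symbols of another form, listed together with the insertase Oxa1l, were examined beside the 77 genes, followed by lists of related genes. All counts of these lists stand against the same background, in which 20% of all genes were lower and 17.6% higher at 68w than at 38w in the Ath+HF group, and 18.3% lower and 20.5% higher in the Ath+HF+BCAA group. Of the 5 genes in the first list, Dap3, Ptcd3 and Chchd1 were lower at 68w than at 38w by limma in the Ath+HF group (log2 fold change -0.36, -0.41 and -0.54) and in the Ath+HF+BCAA group (-0.35, -0.60 and -0.69). Oxa1l, the insertase that receives the new proteins in the inner membrane, was higher in both (0.47 and 0.28). Gadd45gip1 was called in neither.

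Of 14 mitochondrial translation factors, 11 were lower and 1 higher at 68w than at 38w in the Ath+HF group (median log2 fold change -0.48), and 9 lower and 0 higher in the Ath+HF+BCAA group (median -0.58). Gfm1, the elongation factor that moves the ribosome along the messenger, fell by limma in the Ath+HF group (log2 fold change -0.46, adjusted p = 0.00103) and in the Ath+HF+BCAA group (-0.98, adjusted p = 1.21e-06). Slirp, which protects mitochondrial messenger RNAs, fell by 1.22 and by 1.11 on the log2 scale in these groups. Taco1, needed to translate the mitochondrial Cox1 messenger, also fell in both (-0.70 and -0.80). The list thus had a lower median than either ribosomal subunit in both groups, a comparison that was not tested.

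Of 16 mitochondrial aminoacyl-tRNA synthetases, which load transfer RNAs, 5 were lower and 1 higher at 68w in each diet group, with medians of -0.14 and -0.06. Nars2 fell (log2 fold change -0.89 and -0.62 by limma) and Vars2 rose (0.47 and 0.56). Of 27 genes of ribosome assembly and ribosomal RNA processing, 7 were lower (25.9%) and 3 higher (11.1%) in the Ath+HF group, near the shares of all genes, and 14 lower (51.9%) and 2 higher (7.41%) in the Ath+HF+BCAA group. That list also held Polr1a, a subunit of a nuclear RNA polymerase. Tfb1m, which methylates the small subunit RNA, fell in the Ath+HF group (log2 fold change -0.42, limma adjusted p = 0.011) and in the Ath+HF+BCAA group (-1.02, adjusted p = 9.34e-06). Gtpbp10, a factor of large subunit assembly, was lower in both (-0.46 and -0.59).

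Of 8 genes of mitochondrial transcription and DNA maintenance, 3 were lower and 0 higher in the Ath+HF group at 68w against 38w, and 6 lower and 0 higher in the Ath+HF+BCAA group. Tfam, which packages mitochondrial DNA and starts its transcription, fell by limma in the Ath+HF group (log2 fold change -0.63, adjusted p = 0.000592) and in the Ath+HF+BCAA group (-1.34, adjusted p = 6.55e-07). At 68w it was also lower with than without BCAA (-0.76, limma adjusted p = 6.5e-05). Of 9 regulators of mitochondrial biogenesis, 2 were higher and 1 lower in the Ath+HF group, and 3 higher and 2 lower in the Ath+HF+BCAA group. Gabpa, the DNA-binding subunit of the ETS factor GABP, fell in both (log2 -0.59 and -0.67 by limma), while the coactivator Ppargc1b rose in both (0.65 and 0.44).

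**Figure D5:**
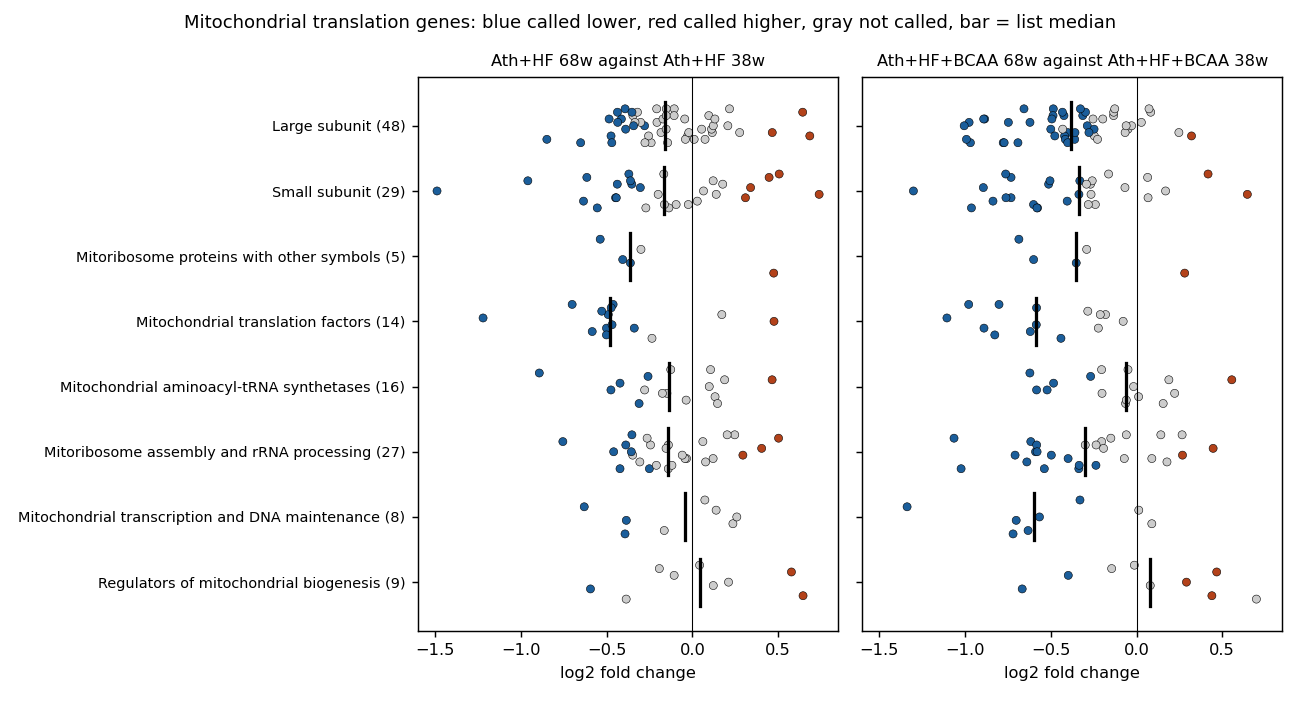
Each point is a gene, placed by its log2 fold change between 68w and 38w in the Ath+HF group (left) and the Ath+HF+BCAA group (right), in rows for the 2 ribosomal subunits and 6 other lists with the number of genes in brackets, and the bar is the median of the list. Blue and red points were called lower and higher by limma, and the bars of the translation factors lie at -0.48 and -0.58, against -0.16 and -0.38 for the large subunit.

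Ribosomal proteins of the cytosol and subunits of respiratory complex I, which needs proteins made by the mitochondrial ribosome, were described in the same way. Of 61 cytosolic ribosomal protein genes, 23 were lower and 9 higher at 68w than at 38w in the Ath+HF group, and 17 lower and 12 higher in the Ath+HF+BCAA group, with medians of -0.11 and -0.06. Many of these genes have near-identical pseudogene copies, which array probes may not tell apart. Of 35 nuclear complex I genes, 8 were lower and 8 higher in the Ath+HF group (median 0.09), and 23 lower and 1 higher in the Ath+HF+BCAA group (median -0.48). The BCAA difference at 68w was lower for 26 of the complex I genes and higher for 0 by limma (median -0.51), against 35 and 2 of the 77 mitochondrial ribosomal protein genes (median -0.25), 7 and 10 of the 61 cytosolic ones (median -0.04) and 16.4% and 19.8% of all genes. Small nucleolar and Cajal body RNAs, which are short and not polyadenylated, also differed with age, with 24 of 54 lower and 8 higher in the Ath+HF group and 26 lower and 5 higher in the Ath+HF+BCAA group. Their mean log2 signal was 8.02 to 8.61 in the 38w arrays and 7.60 to 8.00 in the 68w arrays, and the part of RNA quality or labeling in the differences between the ages was not tested.

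For 8 of the 77 genes a second, dimmer cluster carried the same symbol. In 6 of them both clusters had the same sign in both age comparisons and in both comparisons of 68w arrays with the basal diet group. For Mrpl47 the second cluster had a log2 difference of 0.23 between the Ath+HF group at 68w and the basal diet group, against -0.86 for the cluster used. For Mrpl41, the second cluster had 0.23 between the ages in the Ath+HF group, against -0.26 for the cluster used. Which transcript or locus each of these clusters reads is not given in the annotation used here. A cluster that was used may therefore read a pseudogene copy and not the gene whose promoter was searched.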

How the data were processed

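The deposited table holds log2 signals of 35556 transcript clusters in 15 liver arrays. Per the processing notes in the labels, the authors made these log2 values with RMA (background correction, quantile normalization and summary of probes) in Affymetrix Expression Console (version not given in the sources used here). They were not normalized again in the main setting. Clusters were named through the platform annotation, where 21789 carried 1 symbol, 1621 several and 12146 none. One value per gene, from its brightest cluster, was kept for 19938 genes, and all 77 members were found in RefSeq. RefSeq lists 78 such genes, and the 1 not used, Mrpl53, shares its cluster with another symbol.

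Groups came from the array labels. limma 3.58.1 in R 4.3.3 fitted 1 coefficient per group to all 15 arrays (lmFit and eBayes, with 10 residual degrees of freedom) and gave 9 comparisons, with Benjamini-Hochberg adjustment over all genes. The fit was tested on simulated data. The number of arrays limits the precision. No 2 arrays had identical values (highest correlation 0.993). Replicate numbers did not pair the arrays, since the correlation of deviations between same-numbered arrays ranged from -0.16 to 0.18. In each comparison the text names up to 10 called members with the largest change in each direction, those without overlap first, the extremes of level and span, and members of known role. Of other lists it names up to 4 called genes with the smallest p. The members, lists and motifs were chosen with earlier results of these data known.

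Alternatives were equal array medians, quantile normalization, averaging the clusters of a gene, removing the dimmest 25% of genes, the compared groups alone, eBayes with trend and robust settings, weights per array, the study's analysis of variance with Bonferroni's method, a fold over 1.5 with p under 0.005, the replicate number as a block, the 38w arrays alone, and leaving out each array. Counting genes whose arrays did not overlap was added after the data were seen. Quantitative PCR, protein, histology and cell culture measurements were not analysed here.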

Additional observations from a re-analysis of the deposited data

Results flagged for a closer look

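For 12 of the 77 genes the BCAA difference at 68w differed from that at 38w by limma's interaction test, at an adjusted p under 0.05 over all genes, and in all 12 it was more negative at 68w. In the large subunit the change of the log2 difference was -0.82 for Mrpl22, -0.72 for Mrpl21, -0.68 for Mrpl20, -0.66 for Mrpl50, -0.56 for Mrpl17, -0.54 for Mrpl55 and -0.53 for Mrpl36. In the small subunit it was -0.59 for Mrps33, -0.48 for Mrps15, -0.45 for Mrps16, -0.44 for Mrps5 and -0.43 for Mrps31. The interaction is the same number as the 68w against 38w difference in the Ath+HF+BCAA group minus that in the Ath+HF group. Without 1 array at a time, 9 of the 12 calls held throughout, and those of Mrps5, Mrps16 and Mrps31 were each lost without any 1 of 8 single arrays, Ath+HF 38w replicate 1, Ath+HF 68w replicates 1 and 3 and Ath+HF+BCAA 68w replicate 2 among them in all 3 genes. Mrps5 and Mrps31 also lost their call with the replicate block. The count of lower genes was 30 with quantile normalization, 34 with array medians set equal and 24 with array weights, and 5 with a fold over 1.5 and p under 0.005. In the same contrast 7 of 9 macrophage markers were called higher, with a median of 2.56, and 0 of 7 hepatocyte markers were called, with a median of -0.15, and their part in these values was not tested.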

How the results depend on the processing

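Most counts of this section stand without the share of all genes under the same setting, which can move with the setting as well. No excess over all genes is read from them. The 77 genes kept more lower than higher calls in every comparison of the Ath+HF+BCAA group at 68w, while those of the Ath+HF group at 68w against 38w did not. Quantile normalization gave 10 lower and 16 higher there, 28 lower and 12 higher for Ath+HF 68w against basal diet, 5 higher for Ath+HF+BCAA 68w against 38w, 0 higher for BCAA at 68w, and 30 lower for the interaction of BCAA with age. With array medians set equal, which moved the median of all genes to -0.20 for Ath+HF+BCAA 68w against basal diet, -0.12 against 38w, -0.23 for BCAA at 68w and -0.21 for the interaction, the lower counts were 10 for Ath+HF 38w and 2 for Ath+HF+BCAA 38w against basal diet, 53 for BCAA at 68w and 34 for the interaction, and the higher counts were 1 for Ath+HF+BCAA 68w against basal diet and 0 for BCAA at 68w. Array weights gave 4 higher for BCAA at 68w and 24 lower for the interaction. Leaving out dim genes, or a variance trend with a robust fit, gave 2 lower (Ath+HF 38w) and 1 lower (Ath+HF+BCAA 38w) against basal diet and 1 higher for the interaction. The mean of a gene's clusters, or the 38w arrays alone, gave 0 lower for Ath+HF 38w against basal diet.

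Analysis of variance with Bonferroni's method, without adjustment over genes, gave 3 lower (Ath+HF 38w) and 1 lower (Ath+HF+BCAA 38w) against basal diet, 16 lower and 5 higher for Ath+HF 68w against 38w, 1 lower for BCAA at 38w, and 23 lower and 1 higher for BCAA at 68w. Followed by Benjamini-Hochberg it gave, against basal diet, 0 lower for Ath+HF 38w, 18 lower for Ath+HF 68w and 1 higher for Ath+HF+BCAA 68w, then 8 lower and 4 higher for Ath+HF and 29 lower for Ath+HF+BCAA at 68w against 38w, and 13 lower and 0 higher for BCAA at 68w. A fold over 1.5 with p under 0.005 gave, against basal diet, 2 lower for Ath+HF 38w, 16 lower and 1 higher for Ath+HF 68w, and 34 lower and 0 higher for Ath+HF+BCAA 68w. It gave 6 lower and 3 higher for Ath+HF and 21 lower and 1 higher for Ath+HF+BCAA at 68w against 38w, 4 lower and 0 higher for BCAA at 68w, and 5 lower for the interaction. Most changes of members were smaller than this fold, and the cause of the other shifts was not tested.

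Genes whose arrays did not overlap were counted by a rule chosen after seeing the data, without adjustment for the number of genes. It gave, against basal diet, 24 lower (all genes 1910) and 1 higher (2278) for Ath+HF 38w, 15 lower (2043) for Ath+HF+BCAA 38w and 9 higher (5260) for Ath+HF 68w, 14 higher (5335) for Ath+HF 68w against 38w, 5 lower (1295) and 2 higher (917) for BCAA at 38w, and 4 higher (5169) for BCAA at 68w. Without any 1 array, the lower counts ranged from 0 to 4 for Ath+HF 38w, 0 to 2 for Ath+HF+BCAA 38w, 35 to 46 for Ath+HF 68w and 53 to 59 for Ath+HF+BCAA 68w against basal diet, 18 to 26 (Ath+HF) and 39 to 48 (Ath+HF+BCAA) for 68w against 38w, 19 to 35 for BCAA at 68w and 9 to 17 for the interaction. The higher counts ranged from 1 to 2 for Ath+HF+BCAA 68w against basal diet, 6 to 8 and 2 to 3 for 68w against 38w, 0 to 3 for BCAA at 68w and 0 to 1 for the interaction. With the replicate block, the interaction had 1 higher call, and no other count of the 9 comparisons moved by over 1.5 times. No count of the 9 comparisons moved that far with the compared groups alone. Of the 243 called differences of single members, 0 changed sign under the 27 alternatives run on them. Only equal array medians, quantile normalization, averaged clusters, array weights and leaving out an array could change a sign. The other alternatives change the test or the set of genes and leave the differences of group means as they are. Differences near 0 that were not called can change sign, and no direction is given for them. Signals of dim probes such as Mrps36 lie nearer the background of the array, which limits the size of the differences they can show.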
